A study of Mus musculus with 12 samples.

Results

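Motile cilium genes were described in RNA-seq data from the ventral hippocampus of male mice. The genes were taken by symbol: every gene whose symbol begins with Cfap, Dnah, Dnaaf, Rsph, Drc or Spag followed by a digit, and Foxj1. The rule found 70 of the 17564 genes in the deposited tables, with 30 Cfap, 15 Dnah, 11 Spag, 6 Rsph, 4 Dnaaf and 3 Drc genes beside Foxj1. In the GENCODE M21 annotation 76 genes carry such a symbol, and the other 6 (Cfap97d1, Dnah2os, Rsph14, Rsph6a, Spag11a and Spag11b) were not analysed here.

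The mice were wild type (WT) or carried 1 knock-in copy of the Met allele of Val66Met in Bdnf, the gene of a neuronal growth factor (BDNF het-Met), all on a C57BL/6 background. From 2 months of age they drank corticosterone (CORT, 25 mg/l in 1% ethanol), the main glucocorticoid of rodents, or vehicle (VEH, 1% ethanol) for 6 weeks, so ethanol was common to all 4 groups. Each genotype was given either drink, and each of the groups had 3 libraries, 12 in all, and each library held the RNA of 2 pooled animals. The planned depth was 35000000 to 40000000 single-end reads of 75 bases, and the depth reached by each library is unknown.

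The value given for every gene below is the authors' mean expression over libraries, on the log2 counts-per-million scale (log2 CPM). It is 1 number per gene for the 4 groups together, identical in the table of each genotype. The tables give no value per library or per group, so the levels have no error, and no difference between 2 genes could be set against the spread between libraries. The remaining columns are the authors' own comparisons of VEH with CORT and were not used, so the effect of CORT on the motile cilium genes in either genotype is not reported here. The fit behind the mean lists 7 residual degrees of freedom where 12 libraries in 4 groups leave 8, so it is not known whether each library entered the mean in the same way.

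A motile cilium beats because dynein motors walk along the paired microtubules of its core, the axoneme. Dynein arms drive the sliding, radial spokes and the central pair of microtubules control it, and nexin links between neighbouring doublets turn sliding into bending. In the brain such cilia are carried in tufts by ependymal cells, which line the ventricles and move cerebrospinal fluid, and the epithelium of the choroid plexus is ciliated as well. Neurons and astrocytes carry a single primary cilium that lacks most of this machinery.

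The motile cilium genes were mostly low in the tissue. Their median level was 1.76 log2 CPM, against 3.87 for all genes and 4.42 for the 14468 protein-coding genes. Only 6 of the 70 lay above the median of all genes and 64 lay at or below it. When all genes were ordered by level and cut into 5 equal bins, 24 motile cilium genes fell in the lowest bin, 25 in the next, 16 in the middle one, 3 in the one above and 2 in the highest. Back on the linear scale the 70 genes added up to 982.4 CPM. Each linear CPM value, here and below, is 2 to the power of the mean log2 level and not a mean of CPM over libraries.

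Much of that sum came from genes that are not particular to the axoneme. Of the 70 genes 10 were listed as known to act outside motile cilia, and these held 697.4 CPM. Spag9, a scaffold protein of JNK signalling and vesicle transport, had the highest level of all members, 8.83 log2 CPM (454.3 CPM). It was followed by Cfap36 at 6.56, Cfap20 at 5.30, Spag7 at 5.25 and Cfap97 at 5.24 log2 CPM. These 5 genes and Dnah9 were the ones above the median of all genes. The other members of the 10 were Spag1 (3.34 log2 CPM), Cfap298 (2.96 log2 CPM), Dnaaf5 (2.75 log2 CPM), Spag5 (2.70 log2 CPM), the gene of a mitotic spindle protein, and Spag4 (1.13 log2 CPM). Cfap298 shares 46.4% of its longest transcript with the gene model Gm49727, so its level is uncertain. Without the 10 the remaining 60 genes added up to 285.0 CPM and had a median of 1.45 log2 CPM.

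**Figure D1:**
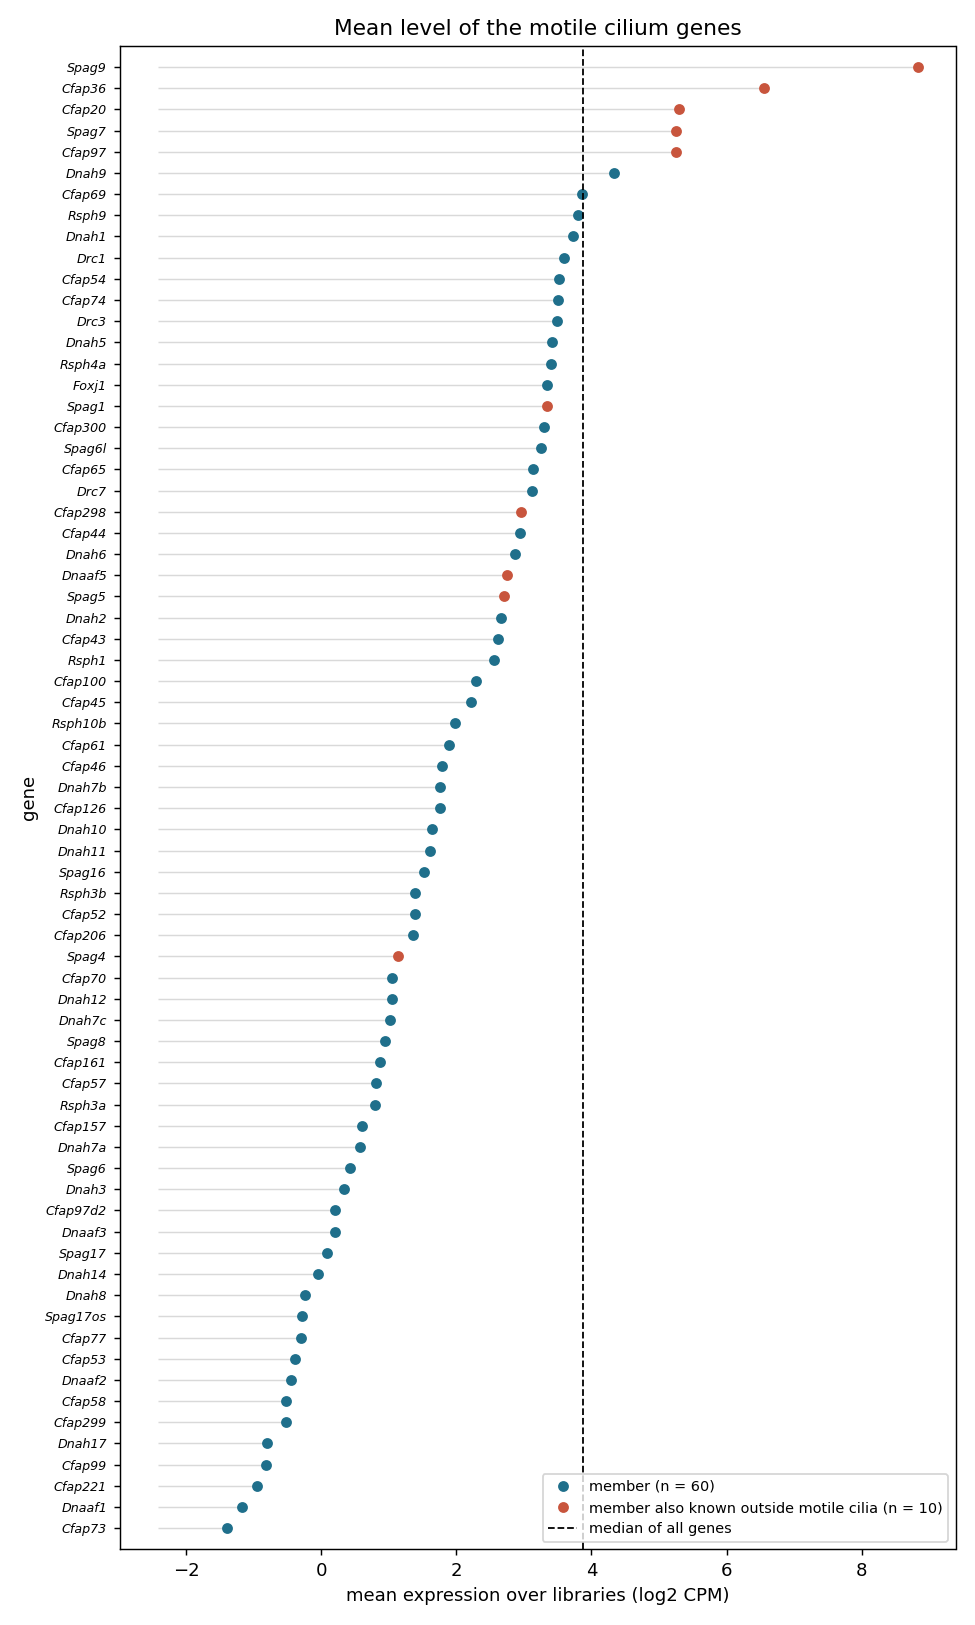
Mean expression over libraries (horizontal axis, log2 CPM) of the 70 motile cilium genes, ordered from highest to lowest, with the 10 genes also known outside motile cilia in red and the median of all genes as a dashed line. The 5 highest points, from Spag9 at 8.83 to Cfap97 at 5.24 log2 CPM, are all red, and Dnah9 is the only other gene right of the line.

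Foxj1 codes for the forkhead transcription factor that switches on the motile cilium programme, and it marks ependymal cells in the brain. The gene lies on GRCm38 chromosome 11 (chr11:116330704-116335399, minus strand) and has 3 exons and 1 annotated transcript, of which the coding part takes 1263 of 2623 bases. Its level was 3.35 log2 CPM (10.2 CPM), which ranked 16th of the 70 and at the 43.1st percentile of all genes. Per kilobase of exon its level was 1.95 log2 CPM, at the 49.9th percentile of all genes.

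Members differ widely in length, and a longer transcript yields more reads at the same number of molecules, so genes were compared per kilobase of merged exon. On this scale (log2 CPM per kb) all genes had a median of 1.96, the protein-coding genes 2.24 and the 70 members -0.45. There were 10 members above the median of all genes. The 5 highest were Spag9 (5.34), Cfap36 (5.10), Spag7 (4.69), Cfap20 (3.15) and Rsph9 (3.12), of which only Rsph9, a part of the radial spoke head, is not among the genes known outside motile cilia. Cfap300 (2.63), Drc1 (2.17) and Rsph1 (2.10) were the other members above that median per kb that are not among those genes. Cfap97 (2.88) and Cfap298 (2.30), which are among them, also lay above it. Drc1 and Rsph1 lay below the median of the protein-coding genes. Cfap300 takes part in the assembly of dynein arms.

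The dynein heavy chains, which carry the motor itself, had the lowest median per kb of the families, -2.54 log2 CPM per kb, although their median level before correction was 1.61 log2 CPM. The median merged exon length of the 15 Dnah genes was 14968 bases, against 3057.5 bases for the 6 Rsph genes. Dnah9 had the highest level (4.34 log2 CPM, and 0.34 log2 CPM per kb), followed by Dnah1 (3.72 and 0.02) and Dnah5 (3.42 and -0.55). Dnah9 and Dnah5 are heavy chains of the outer arm of airway and ependymal cilia, and Dnah1 belongs to the inner arm. These 3 motors stood at the top of the family on both scales.

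At the bottom of the family stood Dnah17 (-0.80 log2 CPM) and Dnah8 (-0.24 log2 CPM), the outer arm heavy chains of the sperm tail. Per kb of exon Dnah17 was at -4.81 and Dnah8 at -4.99 log2 CPM, the 2 lowest values of all 70 members. Per kb, the level of Dnah9 was 35.6 times that of Dnah17, and the level of Dnah5 was 21.7 times that of Dnah8. The second of these ratios depends on the length used, since the merged exons of Dnah8 span 26820 bases and its longest transcript 16685. Per kb of longest transcript Dnah5 and Dnah8 were 3.75 log2 units apart, against 4.44 with merged exons. Dnah11, the other outer arm heavy chain, had 1.61 log2 CPM and -2.24 log2 CPM per kb, and Dnah9 was 6.00 times as high per kb. Among the 10 inner arm heavy chains the level per kb ran from 0.02 (Dnah1) to -4.06 (Dnah14) log2 CPM, with a median of -2.55. Dnah6 (2.87 log2 CPM) and Dnah2 (2.66 log2 CPM) followed Dnah1, and Dnah3 had 0.34 log2 CPM. Dnah3 overlaps Lyrm1 on the opposite strand over 12.3% of its longest transcript, and Lyrm1 stood at 2.82 log2 CPM. The Dnah7 copies are close in sequence, so that their separate levels (1.76 for Dnah7b, 1.02 for Dnah7c and 0.58 log2 CPM for Dnah7a) are uncertain. Of the longest transcript of Dnah7a 12.9% matched Dnah7c in stretches of at least 75 bases at 98% identity or more, and 9.3% of that of Dnah7b matched Dnah7c.

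Dynein arms are put together in the cytoplasm by assembly factors before they enter the cilium. Dnaaf5, which is also among the genes listed as known outside motile cilia, was the highest of the 4 Dnaaf genes at 2.75 log2 CPM. Dnaaf3 was at 0.20, Dnaaf2 at -0.45 and Dnaaf1 at -1.17 log2 CPM. Per kb the order was kept, at 0.94, -0.95, -2.21 and -2.67 log2 CPM. Spag1 (3.34 log2 CPM), Cfap300 (3.30) and Cfap298 (2.96) also take part in this assembly. The 7 assembly genes together had a median of 2.75 log2 CPM and -0.14 log2 CPM per kb. Dnaaf1 and Dnaaf2 also overlap other genes. The transcript of Dnaaf1 shared 20.7% of its length with Taf1c on the opposite strand, which stood at 2.95 log2 CPM, and that of Dnaaf2 shared 32.7% with the opposite-strand gene 9330151L19Rik, at 4.05 log2 CPM. Dnaaf2 also shared 22.3% with Gm49383 and 20.7% with Gm49384, protein-coding models on its own strand, which use of the strand would not separate. The libraries were stranded, but whether counting used the strand is not given in the sources used here.

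Radial spokes reach from each doublet to the central pair. The spoke head genes were the highest of the family, with Rsph9 at 3.80 log2 CPM (3.12 log2 CPM per kb), Rsph4a at 3.40 (1.53 per kb) and Rsph1 at 2.55 (2.10 per kb). The order of Rsph4a and Rsph1 thus depends on the length correction. Rsph10b had 1.98 log2 CPM. The lowest were the spoke stalk genes Rsph3b (1.38 log2 CPM) and Rsph3a (0.80 log2 CPM). These 2 genes share 81.3% and 81.8% of their longest transcripts, with a stretch of 1823 bases at 99.4% and 99.2% identity, so reads cannot be assigned firmly to 1 of them and their separate levels are uncertain.

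The 3 genes named Drc code for part of the nexin-dynein regulatory complex, which has further subunits under other names. Drc1, which builds the base of the link, had 3.59 log2 CPM, Drc3 had 3.49 and Drc7 had 3.11, a range of less than 1 log2 unit. Per kb they lay between 1.31 (Drc3) and 2.17 (Drc1) log2 CPM, with a median of 1.53, the highest of the families beside Foxj1 on this scale.

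**Figure D2:**
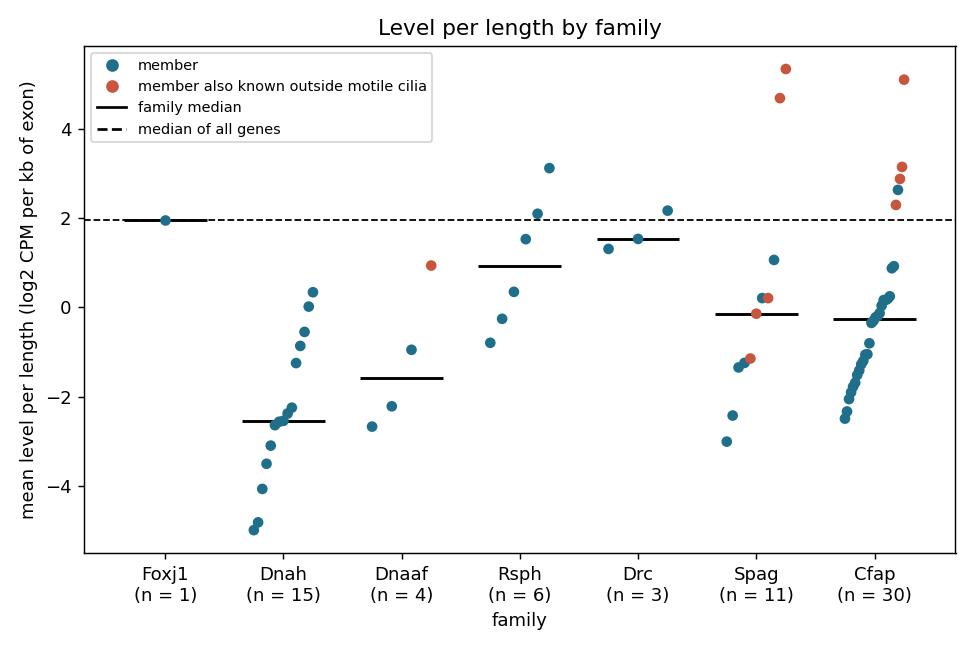
Mean level per length (vertical axis, log2 CPM per kb of merged exon) of each member by family, with family medians as solid lines, the median of all genes (1.96) as a dashed line and genes also known outside motile cilia in red. The Dnah family has the lowest median, -2.54, and the 3 Drc genes lie close together between 1.31 and 2.17.

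Among the Spag genes 4 belong to the central apparatus of the axoneme. Spag6l had 3.25 log2 CPM (1.06 log2 CPM per kb), Spag16 had 1.52 (-1.24 per kb), Spag6 had 0.42 (-1.34 per kb) and Spag17 had 0.08 (-3.01 per kb). Spag6l and Spag6 are close relatives, and per kb the level of Spag6l was 5.31 times that of Spag6. No stretch of at least 75 bases at 98% identity was found between them. Spag17 overlaps Wdr3 on the opposite strand over 10.4% of its longest transcript, and Wdr3 stood at 4.27 log2 CPM. The antisense gene Spag17os, which the symbol rule also took and which codes for no protein, had -0.28 log2 CPM. Spag8 was at 0.94 log2 CPM.

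The Cfap genes code for many unrelated proteins of cilia and flagella. Outside the 4 known to act elsewhere, the 26 others had levels from -1.39 (Cfap73) to 3.86 log2 CPM (Cfap69), with a median of 1.37. Cfap54 (3.53 log2 CPM), Cfap74 (3.51), Cfap46 (1.79) and Cfap221 (-0.95) form 1 projection of the central pair, C1d. Their levels per kb were -0.35, 0.19, -1.41 and -2.49 log2 CPM respectively, so that Cfap74 stood above Cfap54 on this scale. Cfap43 and Cfap44, which tether an inner dynein arm, were close to each other at 2.62 and 2.94 log2 CPM (-0.20 and -0.13 per kb). Cfap100 and Cfap73, partners in the modifier of inner arms, were at 2.29 and -1.39 log2 CPM. Per kb they were closer, at 0.25 and -1.27 log2 CPM. Cfap73 was the lowest of all 70 genes on the uncorrected scale only. A hand-picked group of 5 genes for proteins inside the doublet microtubules, not a full list, ran from -0.40 (Cfap53) to 2.22 (Cfap45) log2 CPM. The others of this group were Cfap126 at 1.75, Cfap52 at 1.38 and Cfap161 at 0.87 log2 CPM. The groups by place in the axoneme were drawn up after the values were seen.

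Other genes of the motile cilium that the symbol rule does not take had similar levels. Of the 63 symbols listed, older and newer names of the same genes included, 52 were in the tables, with a median of 1.66 log2 CPM and 5 above the median of all genes. The highest were Dnal1, a dynein light chain, at 7.28 log2 CPM and Rfx3, a transcription factor of ciliary genes that is not limited to motile cilia, at 6.94 log2 CPM. The lowest was Ropn1l at -1.08 log2 CPM. The median per kb was -0.01 log2 CPM, above the -0.45 of the members.

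Genes of the primary cilium and of intraflagellar transport, which carries cargo along cilia of both kinds, were higher. All 30 of the list were in the tables, 25 of them above the median of all genes, with a median of 5.01 log2 CPM and 2.50 log2 CPM per kb. Kif3a, a subunit of the anterograde transport motor, was highest at 7.43 log2 CPM, followed by Kif3b at 6.67, and Ift43 was lowest at 2.16 log2 CPM. The lowest of these genes per kb stood at 0.85 log2 CPM, while 42 of the 70 members stood below 0. Unlike the members, this list was not sorted for genes that also act elsewhere in the cell.

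Ependymal cells were looked for by their marker genes. Of the 11 ependymal markers 10 were in the tables, and Mia was not analysed here. Foxj1 is itself a member, and 3 of the markers are also among the other motile cilium genes. Pltp was highest at 5.52 log2 CPM and Tm4sf1 second at 3.67, and both are also expressed by other brain cells. Before length correction the other markers were lower, with Ccdc153 at 2.15, Rarres2 at 2.05 and Fam183b at 1.88 log2 CPM. Enkur had 1.39, Tmem212 1.06, Dynlrb2 0.91 and Sntn, the lowest, -0.02 log2 CPM. Per kb this order was not kept. Pltp (4.17), Fam183b (2.70), Foxj1 (1.95) and Dynlrb2 (1.76) stood above Tm4sf1 (1.61 log2 CPM per kb), and the remaining markers stood below it. The median of the 10 was 1.97 log2 CPM and 1.58 log2 CPM per kb.

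Choroid plexus is the other ciliated tissue that borders the hippocampus, and all 12 of its markers were in the tables. Ttr, the carrier of thyroid hormone in cerebrospinal fluid, was highest at 9.44 log2 CPM, followed by Kl at 6.17, and Kcnj13 was lowest at 2.19 log2 CPM. The 12 markers summed to 877.0 CPM, of which Ttr alone held 694.1 CPM. Their median was 2.95 log2 CPM and 1.52 log2 CPM per kb, against 1.96 per kb for all genes. The part of choroid plexus in the levels of the motile cilium genes was not tested. Of the 10 sperm markers only Gapdhs was in the tables, at -1.18 log2 CPM, and the others were not analysed here.

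Markers of the main cell types had higher medians. Median levels per kb were 5.33 log2 CPM for pyramidal and granule neurons (Camk2a 12.1, Snap25 11.4 and Wfs1 6.47 log2 CPM), 5.41 for astrocytes (Aldoc 9.72, Slc1a3 9.68 and Aldh1l1 5.76), 5.60 for oligodendrocytes, 3.91 for microglia (Csf1r 6.64, Cx3cr1 5.89 and Trem2 3.07) and 3.04 for endothelium (Flt1 6.36, Slco1a4 5.75 and Ly6c1 3.75), with single genes, uncorrected for length, in parentheses. In a bulk sample fewer cells of a type and less RNA per cell cannot be told apart.

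**Figure D3:**
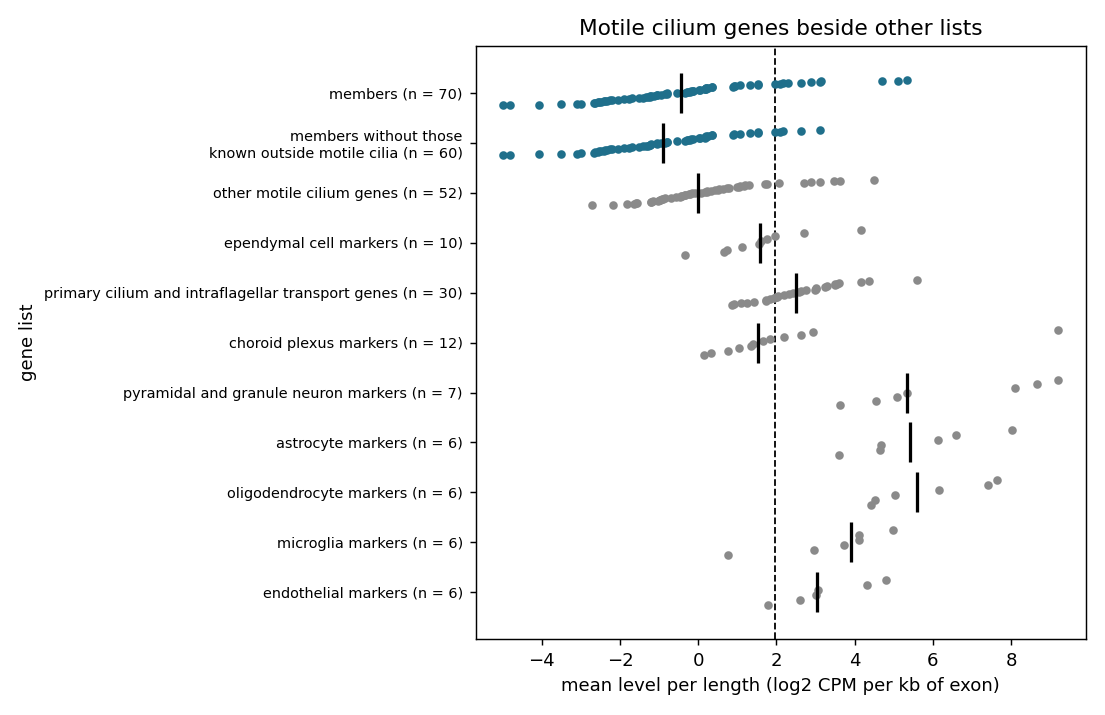
Mean level per length (horizontal axis, log2 CPM per kb of merged exon) of every gene in each list, with list medians as black bars and the median of all genes (1.96) as a dashed line. The median of the members (blue, -0.45) lies left of that of the primary cilium genes (2.50) and of the markers of neurons, astrocytes and oligodendrocytes (medians 5.33 to 5.60).

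Ciliary genes are known to be controlled by RFX transcription factors through the X-box, a pair of inverted half-sites, and motile cilium genes also by FOXJ1, which binds a forkhead motif. Both were searched on both strands in RefSeq promoter windows (GRCm38.p6, 250 bases before to 50 after each start), which were found for 55 of the 70 members and 12050 of all genes in the tables. An X-box with a spacer of up to 3 bases lay in a window of 8 of the 55 members, 14.5%, against 245 of all genes, 2.03%. The share was 19.0% (8 of 42) for the other motile cilium genes and 11.5% (3 of 26) for the primary cilium genes. The X-box members were Cfap298, Cfap44, Cfap45, Cfap58, Cfap99, Dnaaf2, Rsph3b and Spag16, and the letters were not found in the windows of the 14 Dnah genes that had one. Of the members with a window, those with an X-box had a median level of 1.45 log2 CPM and those without one 1.76 log2 CPM.

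The X-boxes with a spacer of 2 or 3 bases, in 5 members, are shown as examples of the motif. No test was run on the shares above. The sites of Cfap58, Cfap99 and Rsph3b have a shorter spacer and are left out. Each is printed 5′ to 3′ on the strand of the gene, with the X-box in capitals and 4 flanking bases on each side in lower case. The position is that of the first base of the box, with 0 at the start site and negative numbers before it.
Cfap298 (chr16:90934900-90934922, minus strand, position -69): gactGTTGCCCCTGGCAACagcc
Cfap298 (chr16:90935020-90935041, minus strand, position -188): tttgGTTGCCCGGGCAACagct
Cfap44 (chr16:44394768-44394789, plus strand, position -27): ggacGTTGCTATGGCAACcgca
Cfap45 (chr1:172521107-172521128, plus strand, position -19): ttggGTTGCTATGGTAACgcgt
Dnaaf2 (chr12:69198429-69198450, minus strand, position -17): aggcGTTACTATGGCAACaaag
Spag16 (chr1:69826863-69826884, plus strand, position -103): acgcGTTGCCGTAGTAACtgcg

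The 8 members held 9 X-boxes, since Cfap298 had a pair in 1 window, and 8 of the 9 lay before the start site, 6 of them within 100 bases of it. The forkhead motif, searched as TGTTTAC, lay in windows of 3 members (Cfap20, Cfap43 and Dnah17), 5.45% of 55, against 3.18% of all genes. Without the 10 genes known outside motile cilia, which include Cfap20, the forkhead share was 4.26% (2 of 47). It was 4.76% (2 of 42) for the other motile cilium genes and 0% (0 of 26) for the primary cilium genes. No member held both motifs. A match describes the letters in the window and does not show that a factor binds there.

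**Figure D4:**
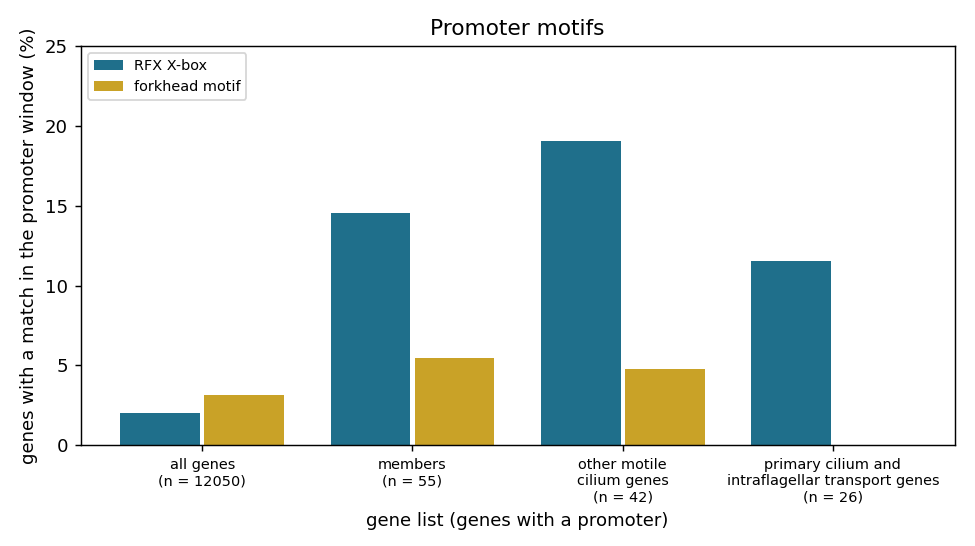
Share of genes with a promoter window (vertical axis, percent, from 0) that hold an RFX X-box (blue) or the forkhead motif (yellow), for all genes, the members, the other motile cilium genes and the primary cilium genes. The X-box bars are 2.03%, 14.5%, 19.0% and 11.5%, and the forkhead bars are 3.18%, 5.45%, 4.76% and 0%.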

How the data were processed

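Per the labels and the methods of the study, reads filtered on quality were aligned with STAR to GRCm38 (mm10), counted per gene with featureCounts against Ensembl annotation and fitted with limma-voom. No source used here gives versions, the filter on weak genes or the normalization. The deposited log2 values used are the authors' mean log2 CPM over libraries. The deposited fold changes, standard errors, t, F, p-values and adjusted p-values are the authors' own comparisons and were not used. The members and lists were chosen with earlier results of these data known.

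Levels per kb are the mean minus the log2 of merged exon length in kb (GENCODE M21, GRCm38, with 17551 of 17564 identifiers matched). Shared sequence was searched with blastn 2.17.0 (at least 75 bases, 98% identity), and the rest was computed in Python 3.11.15. No test was run, since no value per library was used. Named genes are Foxj1, the 3 highest and 2 lowest of each family, the 5 highest per kb and the 2 highest and 1 lowest of each list, except in the oligodendrocyte list, whose single genes are not reported here. Genes named beyond this rule, and the groups by place in the axoneme, were chosen after their values were seen. Scripts were tested on simulated data.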

Additional observations from a re-analysis of the deposited data

How the results depend on the processing

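The median level of the members was 1.76 log2 CPM in the table of either genotype, which is no separate check because both hold the same means. It was 1.45 without the 10 genes known outside motile cilia. Without the 5 members that share over 20% of a transcript with another gene, an alternative chosen after seeing the data, it was 1.79. The number of members above the median of all genes was 6, with 5 against the median of protein-coding genes and 1 (Dnah9) without the 10 genes. The median per kb was -0.45 log2 CPM with merged exons, -0.14 with the longest transcript, -0.91 without the 10 genes, and 0.45 with the longest coding sequence, also chosen after seeing the data. By the formula a shorter length gives a higher value. The coding alternative also leaves out Spag17os, which codes for no protein. The median of all genes was not computed with the other lengths, so the place of the members among all genes is not known there. With each of the 3 lengths the Dnah median was the lowest of the families when Dnaaf5 was kept in its family. Without Dnaaf5, the middle of the 3 other Dnaaf genes was Dnaaf2. Per kb of longest transcript Dnaaf2 stood at -2.214 log2 CPM, just below the Dnah median of -2.206. No paired analysis was possible because the columns used hold no value per library. For the same reason the CORT effect and the spread between libraries planned at the outset were not run, and no library could be left out in turn.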
